A study of Mus musculus with 13 samples.

Results

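The 10 genes of the myostatin, follistatin and IGF1 growth signals were followed across the muscles of *mdm* mice, all 10 of them among the 17924 genes of the deposited tables and all 10 among the 17069 genes that entered the tests. They were chosen by name for their place in these pathways, with earlier results of these data known. The libraries were made from whole muscles of mice homozygous for the *mdm* deletion in Ttn, bred from the B6C3Fe a/a-Ttn *mdm*/J colony, and all 13 libraries carry that deletion. Of the libraries, 5 were EDL (age of the mice 38, 38, 42, 38 and 38 days for replicates 1 to 5), 5 psoas (29, 38, 42, 38 and 38 days) and 3 soleus (33, 36 and 38 days). Wild-type muscles are not analysed here. Each result therefore compares 1 *mdm* muscle with another, and none says what the deletion does to a gene. EDL (extensor digitorum longus) is a fast muscle of the lower leg, psoas a deep muscle of the lower back and hip, and soleus a slow postural muscle of the calf. The labels give the sex for some libraries only. Muscles of the same mouse were taken for several groups, so libraries of different muscles can share an animal.

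Myostatin (Mstn) is a TGF-beta family ligand made by muscle fibres that limits muscle growth. It and its relatives GDF11 and the activins bind type II activin receptors, chiefly ACVR2A and ACVR2B, which act with type I receptors to activate the transcription factors SMAD2 and SMAD3. Follistatin (Fst) and FSTL3 bind these ligands in the extracellular space and block them. IGF1 signals through its receptor IGF1R to AKT and mTOR and promotes protein synthesis, and the IGF binding proteins carry IGFs and govern how much of them reaches the receptor.

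Total counts ran from 9114176 to 48835209 per library and the members with few reads carry a large counting error. Normalized counts are deposited counts divided by the size factor of the authors for that library. The labels also carry codes that they do not explain, T1 for EDL replicate 1, T3 for psoas replicate 1, T4 for replicate 2 of EDL and psoas and replicates 1 and 2 of soleus, T5 for replicate 3 of EDL and psoas, and T6 for replicates 4 and 5 of EDL and psoas and replicate 3 of soleus. By the labels the T4 libraries are male and the T5 libraries female, so these codes differ in sex as well. No sex is given for the other codes. Slow fibre markers were highest in soleus, with summed normalized counts of 8 genes from 350050 to 414997 in soleus and from 11411 to 66549 in the other muscles. Summed normalized counts of the 8 fast fibre markers ran from 965568 to 2151560 in EDL, from 200320 to 585527 in psoas and from 87792 to 123511 in soleus. Ttn, which carries the deletion, was counted over the whole gene at 333226 to 947475 normalized counts, and this count does not show the deletion, so it checks no label. Markers of other cell types differed between the muscles too, with sums of 5 mesothelial markers from 255 to 1050.4 in psoas and from 41.8 to 121 in EDL (Upk3b and Wt1 at 0 in at least 1 library) and of 5 Schwann cell markers from 2245 to 18789 in psoas and from 489 to 1349 in EDL. Regenerating fibre markers summed to 65894 to 144131 in psoas and 35379 to 67674 in EDL, with 4 of 6 higher in psoas at an adjusted p under 0.05 (Mymk called), and satellite cell markers to 1533 to 2635 and 1247 to 1584, with 3 of 6 higher (Myod1 called) and none of the 12 at 0. Tendon markers, of which 3 of 5 were called lower in psoas, summed to 6836 to 15390 in psoas and 12325 to 18839 in EDL with none at 0, and the part of these cells in the results was not tested. These are whole-muscle RNAs, in which fewer cells of a type and less RNA per cell cannot be told apart.

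A gene was called different between muscles when its adjusted p (Benjamini-Hochberg) was under 0.01 and its change over 2-fold (edgeR quasi-likelihood test, 1 fit of all 13 libraries). In psoas against EDL, 2 of the 10 members were called, Mstn and Gdf11, both lower in psoas, beside 4.93% of all genes tested, of which 2.43% were higher and 2.50% lower. With the replicate number as a block, which pairs the EDL and psoas libraries by number, only Gdf11 was called (edgeR adjusted p = 0.00633 for Gdf11 and 0.0306 for Mstn). Replicate 1 of that block joins mice of 38 and 29 days, and no label ties same-numbered libraries to an animal. At an adjusted p under 0.05 in the fit without the block, Igf1r was also higher and Inhba lower in psoas, which makes 4 of the 10 members beside 18.1% of all genes. Inhba reached the count minimum of the tests in EDL libraries only, so that its lower level in psoas goes with its selection, and without it the count was 3 of 9 members, beside 17.8% of the 16896 genes that did not enter through 1 muscle alone. In soleus against EDL, 0 of the 10 members were called by edgeR, beside 0.978% of all genes, while 4 had an unadjusted p under 0.05 and DESeq2 called 2 (limma called 0). Mstn and Gdf11 had an adjusted p under 0.05 there and were lower in soleus, beside 3.43% of all genes. In soleus against psoas, 0 of 10 were called and 0 had an adjusted p under 0.05 by edgeR, beside 0.0762% and 0.633% of all genes, with 1 member at an unadjusted p under 0.05 and 0 called by DESeq2 or limma. The median log2 fold change of the 10 members was 0.09 in psoas against EDL, 0.28 in soleus against EDL and −0.18 in soleus against psoas, beside medians over all genes of 0.02, −0.03 and −0.03. The comparisons share libraries and are not independent of each other. By the values of the study, no psoas library had a higher RNA integrity number than any EDL library. The part of RNA quality in the differences between psoas and EDL was not tested.

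**Figure D1:**
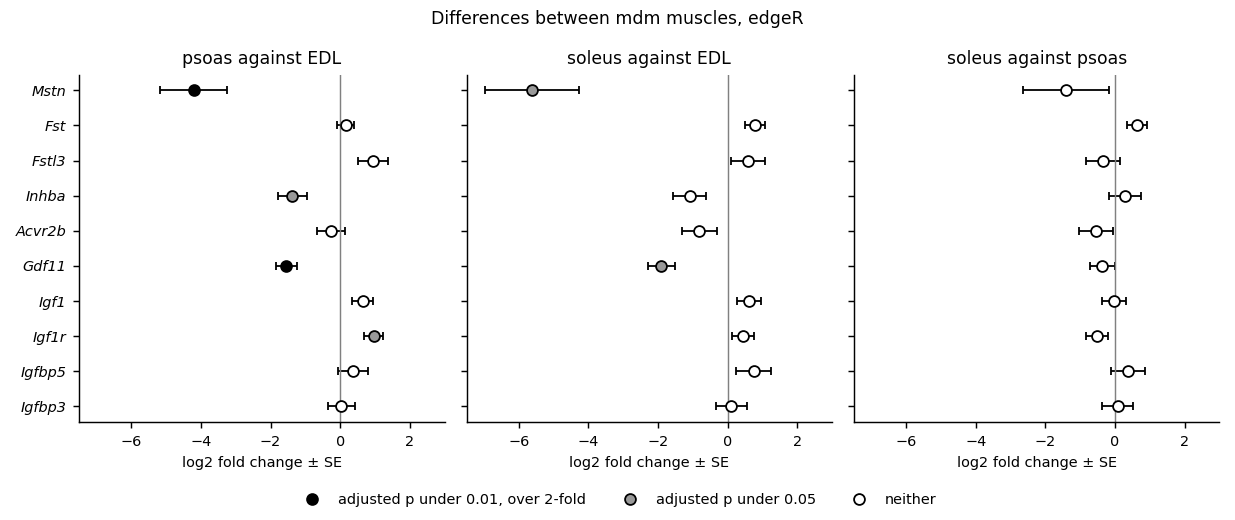
Log2 fold change of each of the 10 members with its standard error (horizontal axis) in the 3 comparisons between *mdm* muscles, from edgeR. Black points passed an adjusted p under 0.01 and a 2-fold change, grey points an adjusted p under 0.05 only. Mstn (−4.21) and Gdf11 (−1.55) are the black points, both in psoas against EDL, and Mstn has the widest errors of the members. The fits shown have no replicate block, with which Mstn was not called, and Inhba entered the tests through EDL only.

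Mstn and Gdf11 were the members called in psoas against EDL in the fit without the block, so the bases before their transcription starts are shown. RefSeq gave a promoter window for 9 of the 10 members. The windows below hold the 250 bases before the start on GRCm38.p6, read 5′ to 3′ on the strand of the gene, at chr1:53061390-53061639 (forward strand) for Mstn and at chr10:128891719-128891968 (reverse strand) for Gdf11. Capitals mark the E-box CANNTG (N is any base), the core sequence recognised by MyoD and related muscle transcription factors, which reads alike on both strands.
Mstn: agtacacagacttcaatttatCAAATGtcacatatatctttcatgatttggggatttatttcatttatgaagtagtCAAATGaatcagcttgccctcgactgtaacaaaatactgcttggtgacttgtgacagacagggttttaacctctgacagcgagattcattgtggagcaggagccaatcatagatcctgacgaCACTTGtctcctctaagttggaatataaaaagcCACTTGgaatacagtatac
Gdf11: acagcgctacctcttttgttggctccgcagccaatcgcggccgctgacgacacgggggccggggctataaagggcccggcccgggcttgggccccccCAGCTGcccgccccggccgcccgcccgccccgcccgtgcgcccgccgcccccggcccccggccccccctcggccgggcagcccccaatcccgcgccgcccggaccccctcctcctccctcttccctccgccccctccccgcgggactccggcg
The Mstn window held 4 such sequences and the Gdf11 window 1. At least 1 was present in 66.2% of 32851 promoter windows of the same length, and 4 or more in 3.84%. The 1 sequence before Gdf11 reads CAGCTG, a form of the E-box found in 4271 of the 32851 windows and absent from the Mstn window. Each of the 2 windows also held the letters TATAAA once on either strand, as did 12.4% of all windows, and these did not overlap an E-box. The base composition of the windows differed, with a GC content of 38.4% for Mstn and 81.2% for Gdf11. These matches describe the sequence and say nothing of what binds there.

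Mstn (ENSMUSG00000026100, chr1:53061640-53068079 on GRCm38, forward strand) was by far higher in some EDL libraries than in psoas and soleus. Its normalized count was 551, 457, 1210.4, 106 and 48.7 in EDL replicates 1 to 5. It was 10.2, 9.08, 9.16, 46.9 and 55.5 in psoas replicates 1 to 5, and 2.90, 0.714 and 36.1 in soleus replicates 1 to 3. EDL and psoas overlapped, because EDL replicate 5 lay below psoas replicate 5, while every soleus library lay below every EDL library. The means were 474 ± 465 (SD, n = 5) in EDL, 26.2 ± 23.1 (n = 5) in psoas and 13.2 ± 19.8 (n = 3) in soleus, so in EDL and soleus the spread was about as large as the mean or larger. The value of soleus replicate 2 rests on 1 read and that of soleus replicate 1 on 7 reads.

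Against EDL, Mstn was 18.5-fold lower in psoas (log2 fold change −4.21, SE 0.949, edgeR adjusted p = 0.00956). With the replicate block the difference was −3.90 and was no longer called (edgeR adjusted p = 0.0306). Nor was it called with the label code as a block (−3.77, edgeR adjusted p = 0.0399). Refitting without each library in turn kept the call in 4 of 13 fits, those without EDL replicate 4, EDL replicate 5, soleus replicate 2 or soleus replicate 3. In the other 9 the edgeR adjusted p ran from 0.0112 to 0.0292, the highest without EDL replicate 3, and the direction stayed the same in all 13. In soleus, Mstn was 49.0-fold lower than in EDL (log2 fold change −5.62, SE 1.34, edgeR adjusted p = 0.0331), which passed only the wider limit. Single libraries moved this value, to −7.80 without soleus replicate 3 (edgeR adjusted p = 0.0258), −4.93 without soleus replicate 1 (0.169), −4.91 without soleus replicate 2 (0.147) and −4.85 without EDL replicate 3 (0.0721), and without EDL replicate 1 or 2 the edgeR adjusted p was 0.0507 and 0.0515. Between soleus and psoas the difference of −1.40 (SE 1.24) did not pass (edgeR adjusted p = 0.648), and it ran from −3.60 without soleus replicate 3 to −0.70 without soleus replicate 2.

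The size of the Mstn difference moved with the label code. In the 3 EDL libraries of codes T1, T4 and T5 the normalized count ran from 457 to 1210.4, and in the 2 EDL libraries of code T6 from 48.7 to 106. Psoas went the other way, with 9.08 to 10.2 in the 3 libraries of other codes and 46.9 to 55.5 in the 2 libraries of T6, and so did soleus, with 0.714 and 2.90 against 36.1. The T6 libraries of the 3 muscles thus lay close together, and those of the other codes lay far apart. On the scale of mean log2 CPM (TMM-scaled, prior count 2), psoas differed from EDL by −5.48 within T4, by −6.85 within T5 and by −0.47 within T6. Soleus differed from EDL by −7.25 within T4 and by −0.95 within T6. The total counts of the 5 T6 libraries ran from 9114176 to 20588849 and those of the 8 others from 12059090 to 48835209. Whether the difference between muscles itself differs between the codes was not tested.

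Of all 17069 genes tested, Myh4 followed Mstn most closely over the 13 libraries (Pearson r = 0.962 on log2 TMM-scaled CPM, n = 13 libraries, several of which share a muscle, an animal or a code). Myh4 encodes myosin heavy chain 2B, the myosin of the fastest fibres. Smtnl2, a smoothelin-like gene, and Car14, a membrane-bound carbonic anhydrase, came next (r = 0.941 and 0.939). With the mean of each muscle subtracted, Myh4 was again first (r = 0.938), before St8sia5 (0.874) and ENSMUSG00000095306 (0.871). By the same measure Gdf11 stood at r = 0.763 before and 0.192 after the muscle means were subtracted. Other fast fibre markers followed Mstn less closely than Myh4. Mybpc2 stood at r = 0.904 before and 0.693 after, and Pvalb at 0.878 and 0.575. Myh1 stood at 0.797 and 0.475, and Actn3 at 0.746 and 0.308. This value was not read for Atp2a1, Tnnt3 or Tnni2. The normalized count of Myh4 was 268267, 481027 and 790666 in the EDL libraries of codes T1, T4 and T5, and 182739 and 144108 in those of T6. In psoas it was 7836 to 12886 in the codes other than T6 and 35035 and 36779 in T6, and in soleus 3522 and 4138 against 18198. Of the 8 fast fibre markers, 7 had an adjusted p under 0.05 and were lower in psoas than in EDL (4 of them called), and all 8 were lower in soleus than in EDL (5 called). None of the 8 was at 0 in any library. The part of fibre composition in the level of Mstn was not tested.

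**Figure D2:**
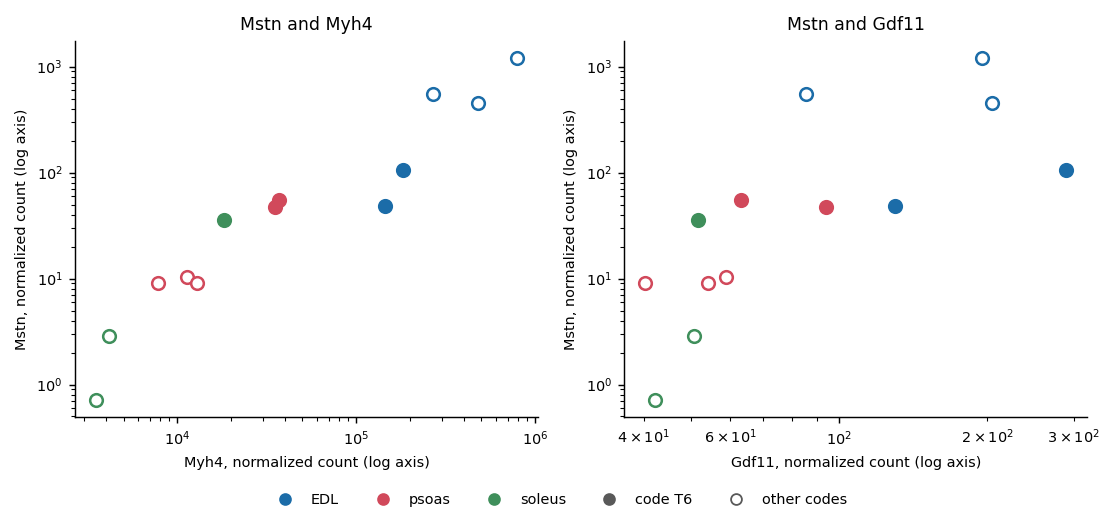
Normalized count of Mstn (vertical, log axis) against that of Myh4 (left) and Gdf11 (right, both log axes) in 13 *mdm* libraries, 1 point each. Filled points are libraries of code T6, open points those of the other codes. Mstn ordered the libraries much as Myh4 did, from 0.714 in a soleus library to 1210.4 in an EDL library, while the filled points hold a narrow range of Mstn, from 36.1 to 106, over most of the range of Gdf11.

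Gdf11 (ENSMUSG00000025352, chr10:128882295-128891718, reverse strand), the closest relative of myostatin in the family, was lower in psoas and soleus than in EDL. Its normalized count was 85.6, 205, 195, 289.7 and 129.8 in EDL replicates 1 to 5. It was 58.7, 53.9, 40.3, 93.8 and 63.0 in psoas and 50.5, 42.1 and 51.6 in soleus. All soleus libraries lay below all EDL libraries, and psoas replicate 4 alone lay above the lowest EDL library. Psoas was 2.92-fold lower than EDL (log2 fold change −1.55, SE 0.310, edgeR adjusted p = 0.00571), and with the replicate block the value was −1.46 (edgeR adjusted p = 0.00633). Within the codes that hold both muscles the difference was −1.93 in T4, −2.24 in T5 and −1.31 in T6, a narrower range than for Mstn. Each of these values rests on 1 or 2 libraries of each muscle. EDL replicate 1 (T1) and psoas replicate 1 (T3) have no such value. The call was lost without EDL replicate 2, 3 or 4 or psoas replicate 1, 2, 3 or 5, with edgeR adjusted p from 0.0108 to 0.0169. Soleus was 3.75-fold lower than EDL (log2 fold change −1.91, SE 0.382, edgeR adjusted p = 0.0138), by −2.13 within T4 and −1.87 within T6. Between soleus and psoas the difference was −0.36 (SE 0.363, edgeR adjusted p = 0.690).

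Because the 2 ligands moved unequally, their ratio depended on the library. Per kilobase of exon, Mstn exceeded Gdf11 9.66-fold, 3.35-fold and 9.32-fold in EDL replicates 1 to 3, and was 0.548 and 0.563 of it in EDL replicates 4 and 5. In psoas the ratio was 0.262, 0.253, 0.341, 0.751 and 1.32 in replicates 1 to 5, and in soleus replicates 1 and 3 it was 0.0862 and 1.05. For soleus replicate 2, where Mstn has 1 read, neither this ratio nor the one with Fst is given. So in the codes other than T6 Mstn was the larger of the 2 transcripts in EDL and the smaller in psoas.

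Inhba (chr13:16011851-16031621, forward strand), which encodes the subunit of activin A, was measured near the lower limit of the libraries. Its normalized count was 22.1, 14.0, 5.97, 17.4 and 14.9 in EDL replicates 1 to 5. It was 6.06, 4.27, 4.58, 6.95 and 7.46 in psoas and 8.28, 8.57 and 3.44 in soleus. All EDL libraries but replicate 3, whose value rests on 3 reads, lay above all libraries of the other muscles. Inhba was 2.59-fold lower in psoas than in EDL (log2 fold change −1.37, SE 0.405, edgeR adjusted p = 0.0312), which passed the wider limit only. Inhba had a normalized count of 10 or more in 4 EDL libraries and in 0 of the others, so it entered the tests through the muscle in which it is high. In a fit without the minimum the value was −1.37 (edgeR adjusted p = 0.0363). In soleus against EDL the difference was −1.08 (SE 0.476, edgeR adjusted p = 0.290). Inhbb, the gene of the activin B subunit and no member, went the other way. Its mean was 76.3 ± 24.9 in EDL, 179 ± 58.0 in psoas and 194 ± 44.6 in soleus, with log2 fold changes of 1.21 in psoas (edgeR adjusted p = 0.0104) and 1.34 in soleus (edgeR adjusted p = 0.0278) against EDL.

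Fst (ENSMUSG00000021765, chr13:114452290-114458951, reverse strand), the gene of follistatin, was expressed at over 500 normalized counts in every library. It was 749.8, 524, 850.1, 1039 and 1286 in EDL replicates 1 to 5. It was 1127, 582, 1351, 976 and 913 in psoas and 1719, 1588 and 1281 in soleus. The soleus libraries lay in or above the upper end of the others, and the 3 groups overlapped. Soleus differed from EDL by a log2 fold change of 0.79 (SE 0.287, edgeR adjusted p = 0.176) and from psoas by 0.63 (SE 0.287, edgeR adjusted p = 0.376), and psoas from EDL by 0.16 (SE 0.253, edgeR adjusted p = 0.703). None of these passed.

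Set against Mstn per kilobase, Fst was the lower transcript in EDL replicates 1 to 3, at 0.803, 0.676 and 0.414 times Mstn. In the T6 libraries EDL replicates 4 and 5 it was 5.80 and 15.6 times Mstn. In psoas it exceeded Mstn 64.8-fold, 37.8-fold, 86.9-fold, 12.3-fold and 9.70-fold, and in soleus replicates 1 and 3 349.9-fold and 20.9-fold. These ratios, which follow Mstn more than Fst, are ratios of RNA and not of protein.

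Fstl3 (chr10:79777272-79782630, forward strand), the second member of the follistatin family here, had normalized counts from 3.19 to 12.3 in EDL, from 8.85 to 18.2 in psoas and from 6.88 to 11.6 in soleus. The groups overlapped, and the log2 fold change of 0.93 in psoas against EDL did not pass (SE 0.426, edgeR adjusted p = 0.140). In EDL the values of replicates 2 to 5 rest on 2 to 7 reads. Of the 11 extracellular inhibitors and carriers tested, 4 had an adjusted p under 0.05 in this comparison, 3 with a positive change. The other was Nog, the gene of noggin (log2 fold change −1.11, edgeR adjusted p = 0.0376). Wfikkn2, which binds myostatin and GDF11, did not pass (−0.25, SE 0.428, edgeR adjusted p = 0.718). Nor did the follistatin-like gene Fstl1 (0.01, SE 0.325, edgeR adjusted p = 0.987). The sign for Wfikkn2 and Fstl1 depended on the scaling or the tool, and Wfikkn1 was not analysed here.

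Acvr2b (chr9:119402118-119434995, forward strand), a type II receptor for myostatin and the activins, was low throughout, with normalized counts from 6.76 to 37.0 in EDL, from 12.8 to 25.6 in psoas and from 9.28 to 12.8 in soleus. No comparison passed, with log2 fold changes of −0.26 (SE 0.406, edgeR adjusted p = 0.691) in psoas and −0.81 (SE 0.491, edgeR adjusted p = 0.488) in soleus against EDL, and the first became 0.30 when libraries were scaled by their totals. Acvr2a, the other type II receptor and no member, was measured at 553 to 838 in EDL, 647 to 811 in psoas and 624 to 866 in soleus, with a log2 fold change of 0.07 (SE 0.163, edgeR adjusted p = 0.784) in psoas against EDL. The type I receptor gene Acvr1b had means of 466 ± 199, 314 ± 122 and 204 ± 73.1 in EDL, psoas and soleus, and no comparison passed (edgeR adjusted p = 0.239 in psoas and 0.136 in soleus against EDL).

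Among the IGF genes, Igf1 (ENSMUSG00000020053, chr10:87858265-87937042, forward strand) turned on 1 library. Its normalized count was 1198, 845, 1019, 3009 and 882 in EDL replicates 1 to 5. It was 1721, 2354, 1780, 2459 and 2525 in psoas and 1990, 2156 and 2218 in soleus. EDL replicate 4 lay above all libraries of the other muscles and the other 4 EDL libraries below all of them. With all libraries, psoas differed from EDL by a log2 fold change of 0.65 (SE 0.308, edgeR adjusted p = 0.157) and soleus from EDL by 0.62 (SE 0.349, edgeR adjusted p = 0.441). With the replicate block the first was 0.82 (edgeR adjusted p = 0.0484). Without EDL replicate 4 psoas was higher by 1.13 and was called (edgeR adjusted p = 0.00298), and soleus was higher by 1.11 (edgeR adjusted p = 0.0112). EDL replicate 4 also had the highest sums of macrophage (17115), fibroblast (66512) and adipocyte (27880) markers of the EDL libraries, against 4913 to 9785, 13806 to 49846 and 9140 to 15451 in the other 4. Of these markers, Cd68, Pdgfra, Ly6a and Cidec were higher in another EDL library. All 7 macrophage, 7 fibroblast and 5 adipocyte markers were in the tables and none was at 0 in any library. Their part in the level of Igf1 was not tested.

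Igf1r (chr7:67952827-68233668, forward strand), the receptor gene, was higher in psoas. Its normalized count was 372, 411, 221, 233 and 185 in EDL replicates 1 to 5. It was 834, 508, 610.0, 499 and 344 in psoas and 426, 446 and 289 in soleus. Psoas replicate 5 lay within the EDL range and the other 4 psoas libraries above it. The difference between psoas and EDL was 0.97 (SE 0.271, edgeR adjusted p = 0.0246), which passed the wider limit only, and with the replicate block it was 0.99 (edgeR adjusted p = 0.00661), still short of a 2-fold change. It was 0.27 within T4, 1.45 within T5 and 1.0 within T6. Soleus differed from EDL by 0.45 (SE 0.307, edgeR adjusted p = 0.555).

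Igfbp5 (chr1:72857932-72874884, reverse strand), the gene of an IGF binding protein abundant in muscle, varied more within a muscle than between muscles. It was 554, 746, 488, 2049.7 and 701 in EDL replicates 1 to 5. It was 701, 1174, 617, 1729 and 1633 in psoas and 671, 1619 and 2239 in soleus. EDL replicate 4 again stood above the other EDL libraries, and the 3 ranges overlapped. Differences were 0.37 (SE 0.433, edgeR adjusted p = 0.588) in psoas and 0.75 (SE 0.491, edgeR adjusted p = 0.529) in soleus against EDL.

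Igfbp3 (chr11:7206086-7213923, reverse strand), the gene of the main IGF carrier of blood plasma, had nearly the same mean in the 3 muscles, 1699 ± 338 in EDL, 1733 ± 1449 in psoas and 1822 ± 463 in soleus. The psoas mean rests on replicate 1, at 4283, while the other 4 psoas libraries ran from 776 to 1490.2. Psoas differed from EDL by 0.03 (SE 0.389, edgeR adjusted p = 0.968), and without psoas replicate 1 it was −0.63 (edgeR adjusted p = 0.0851). Psoas replicate 1 came from the youngest mouse, of 29 days, and had the highest sums of Schwann cell markers (18789, against 2245 to 9313 in the other psoas libraries) and of smooth muscle and pericyte markers (14922, against 6932 to 10204). Its sums of regenerating fibre (144131) and endothelium (2998) markers were the highest in psoas as well. Not every marker followed its sum, as Rgs5, Pdgfrb, Cspg4, Myog, Ncam1, Mymk, Mymx, Kdr and Tie1 were higher in another psoas library. All markers of these lists were in the tables, and Sox10 was at 0 in at least 1 library. The part of these markers in the level of Igfbp3 was not tested.

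**Figure D3:**
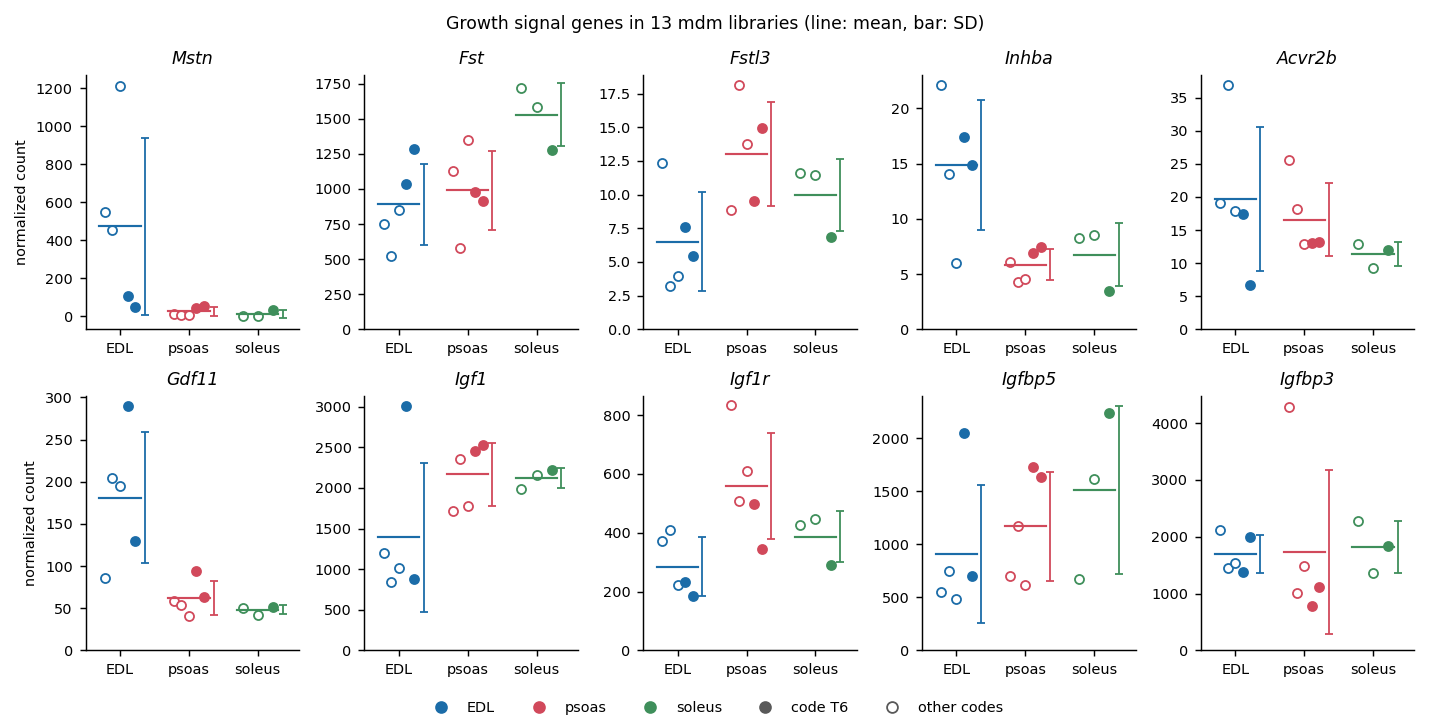
Normalized count (vertical axes, linear) of the 10 members in each of 13 *mdm* libraries by muscle, with the mean as a line and the SD as a bar. Filled points are libraries of code T6 and open points those of other codes. Mstn is high in 3 open EDL points (457 to 1210.4), Gdf11 is lower in psoas and soleus in filled and open points alike, and single libraries stand apart for Igf1 (3009) and Igfbp5 (2049.7) in EDL and for Igfbp3 (4283) in psoas.

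Levels of different genes were compared per kilobase of exon. Igfbp3 was the highest of the 10 in all 3 muscles by the mean, at 543 ± 108 in EDL, 554 ± 463 in psoas and 582 ± 148 in soleus. In EDL it was followed by Fst, Mstn, Igfbp5, Igf1, Gdf11, Igf1r, Acvr2b, Fstl3 and Inhba. Of these neighbours, Igfbp3 and Fst, Igf1 and Gdf11, and Igf1r and Acvr2b did not overlap between libraries, and the other pairs did. By its mean Mstn had rank 3 in EDL (175 ± 172) and rank 7 in psoas (9.68 ± 8.53) and soleus (4.89 ± 7.33), and of single libraries psoas replicate 4 alone had the rank of its muscle's mean. It was rank 2 in EDL replicates 1 to 3 and rank 6 in EDL replicates 4 and 5. In psoas replicates 1 to 5 it was rank 8, 9, 8, 7 and 5, and in soleus replicates 1 to 3 rank 10, 10 and 6. In psoas, Igfbp5 and Igf1r, and Acvr2b and Inhba, were the neighbours that did not overlap. In soleus, Igfbp3 and Fst, Igf1 and Igf1r, Igf1r and Gdf11, and Acvr2b and Inhba did not overlap. Inhba had the lowest mean of the 10 in each muscle (2.33 ± 0.923, 0.918 ± 0.221 and 1.06 ± 0.451). By library it was rank 8 to 10, and Igfbp3 was the highest in every library but psoas replicate 4, where Igfbp5 and Igf1 lay above it.

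**Figure D4:**
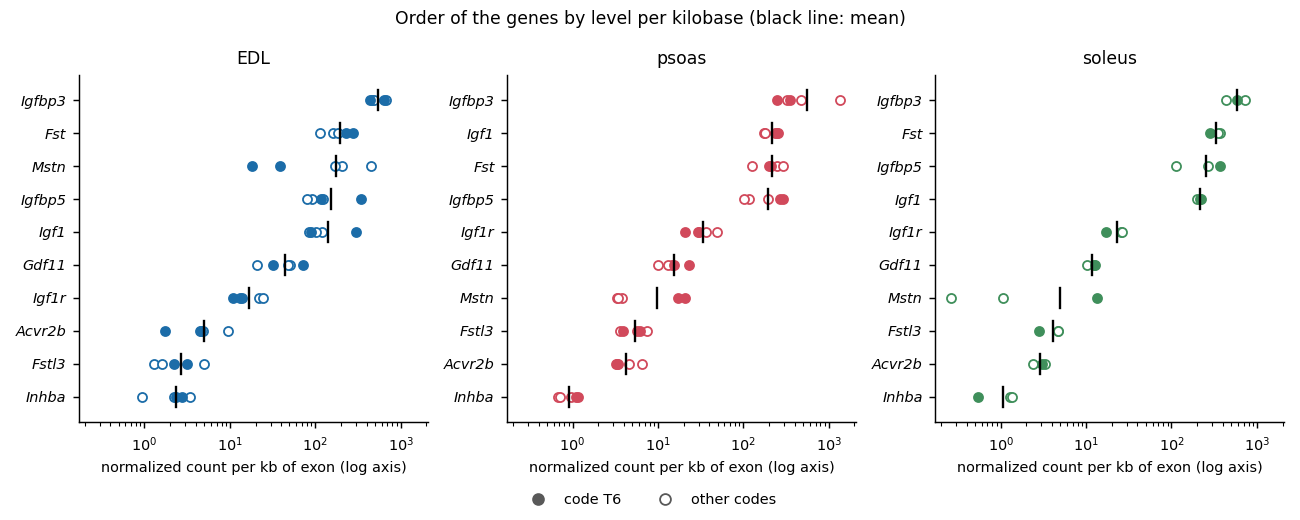
Normalized count per kilobase of exon (horizontal, log axis) of the 10 members in EDL, psoas and soleus, ordered by the mean (black line), with 1 point for each library. By the mean Mstn moves from rank 3 in EDL to rank 7 in psoas and soleus, while its single libraries have rank 2 or 6 in EDL, and its points spread widely on the log axis. Igfbp3 and Inhba have the highest and lowest means.

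The wider pathway was read from a list of 95 genes that holds the members, of which 90 were tested. In psoas against EDL, 3 of them were called higher and 2 lower, beside 4.93% of all genes. The call of Mstn among them was lost with the replicate block. At an adjusted p under 0.05, 19 were higher and 5 lower, or 24 of 90 (26.7%) beside 18.1% of all genes. Without Inhba, which entered the tests through EDL only, it was 23 of 89 (25.8%). Beside it stand 17.8% of the 16896 genes that did not enter through 1 muscle alone. The 90 genes had a median log2 fold change of 0.25, beside 0.02 over all genes. The 3 called higher were Igf2, Ltbp3 and Grb10. Igf2, the fetal IGF ligand, was 3.59-fold higher in psoas (log2 fold change 1.84, SE 0.304, edgeR adjusted p = 0.00225), with 5821 to 7967 in psoas against 1326 to 3115 in EDL and 2004 to 5696 in soleus. Ltbp3, which holds latent TGF-beta in the matrix, was 2.39-fold higher (1.26, SE 0.239, edgeR adjusted p = 0.00431), with 464 to 623 in psoas and 121 to 352 in EDL, and the call was lost without EDL replicate 5 or psoas replicate 2 (edgeR adjusted p = 0.0117 and 0.0120). Grb10, an adaptor that dampens insulin and IGF receptor signalling, was 2.09-fold higher (1.06, SE 0.230, edgeR adjusted p = 0.00831), with 4033 to 7888 in psoas and 2445 to 3370 in EDL. Its call held in 3 of the 13 fits that left out 1 library, those without psoas replicate 5, soleus replicate 1 or soleus replicate 3, and otherwise the edgeR adjusted p rose to at most 0.0249. Like Igf2, Grb10 and Igf1r, 4 of 6 regenerating fibre and 3 of 6 satellite cell markers were higher in psoas at an adjusted p under 0.05. Whether they varied together between libraries was not examined, and the part of these markers in the levels was not tested. Igfbp4, an inhibitory IGF binding protein, was higher in psoas at the wider limit (0.92, edgeR adjusted p = 0.0343), and Insr, the insulin receptor, did not pass (0.41, edgeR adjusted p = 0.404).

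By role, the genes with an adjusted p under 0.05 in psoas against EDL were 4 higher and 3 lower of 11 ligands of the TGF-beta family, 3 higher and 1 lower of 11 inhibitors and carriers, 1 higher of 5 maturation proteases, 2 higher of 10 receptors and 2 higher of 13 SMAD signalling genes. They were 2 higher of 6 IGF and growth hormone ligands and receptors, 1 higher of 11 IGF binding proteins and their proteases, and 4 higher and 1 lower of 23 genes of PI3K, AKT and mTOR signalling. Beside the 18.1% of all genes, the share was 63.6% of the ligands of the TGF-beta family. That share counts Inhba, which entered the tests through EDL only. The share was 36.4% of the inhibitors and carriers and 33.3% of the IGF and growth hormone ligands and receptors. It was near or under that of all genes in the maturation proteases (20.0%), receptors (20.0%), SMAD genes (15.4%), IGF binding proteins (9.09%) and PI3K, AKT and mTOR genes (21.7%). In soleus against EDL 1 of the 90 was called, Acvr1c, beside 0.978% of all genes, and 5 (5.56%) had an adjusted p under 0.05, beside 3.43%, Mstn and Gdf11 lower and Inhbb, Igfbp4 and Acvr1c higher. Acvr1c, the type I receptor ALK7, which is known from fat cells, was 5.14-fold higher in soleus (log2 fold change 2.36, SE 0.372, edgeR adjusted p = 0.00449). Its normalized count was 1422, 967 and 1035 in soleus, against 139 to 499.9 in EDL and 343 to 652 in psoas. Its call was lost without any 1 of EDL replicates 1, 2, 3 or 5 or soleus replicates 1, 2 or 3 (edgeR adjusted p from 0.0102 to 0.0301). All 5 adipocyte markers were also higher in soleus than in EDL at an adjusted p under 0.05 (2 called), with sums from 53978 to 82861 in soleus and from 9140 to 27880 in EDL and none at 0 in any library. Their part in the level of Acvr1c was not tested. In soleus against psoas 0 of the 90 had an adjusted p under 0.05 by edgeR, beside 0.633% of all genes.

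**Figure D5:**
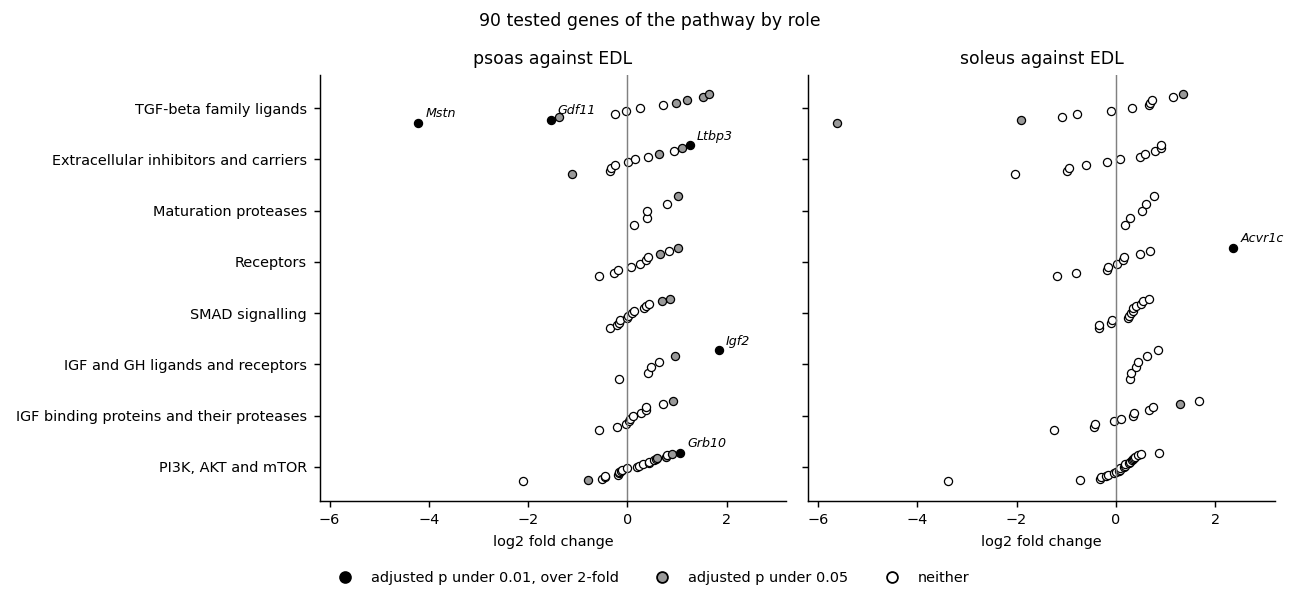
Log2 fold change (horizontal axis) of the 90 tested genes of the pathway list, 1 point each, in rows by role, for psoas and for soleus against EDL. Black points were called and carry their name, grey points passed an adjusted p under 0.05 only. Mstn (−4.21 in psoas, −5.62 in soleus) lies far below the other ligands, and the called points on the right are Ltbp3 (1.26), Igf2 (1.84) and Grb10 (1.06) in psoas and Acvr1c (2.36) in soleus.

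Measured by whether the libraries overlapped at all, without a test, 0 of the 10 members separated psoas from EDL, beside 2225 of the 17069 genes tested. Of the 10, 2 separated soleus from EDL, Mstn and Gdf11, beside 1886 genes, and 0 separated soleus from psoas, beside 1734 genes. With library totals in place of TMM, the median of all genes moved by 0.52 in psoas against EDL and by 0.37 in soleus against EDL, and the share of called genes that were higher rose from 49.3% to 92.9% and from 54.5% to 77.7%. On that scale psoas against EDL was −3.64 for Mstn, still called (edgeR adjusted p = 0.00742), −1.04 for Gdf11, not called (edgeR adjusted p = 0.0264), and 1.51 for Igf1r, called (edgeR adjusted p = 0.00179), and the sign of Acvr2b changed. The loci of Fst, Fstl3, Inhba, Acvr2b and Igf1 overlap genes annotated on the opposite strand, and the strand setting of the counting is not given in the sources used here. None of those opposite-strand genes is in the tables.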

How the data were processed

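RNA of whole *mdm* EDL, psoas and soleus muscles was sequenced by the authors with TruSeq Stranded Total RNA libraries on a NextSeq 500. The authors aligned the reads to GRCm38.p4 with TopHat 2.1.1, trimming libraries of low base quality with Trimmomatic 0.32, and counted them per gene with GenomicAlignments. The deposited counts are whole numbers, and the deposited normalized signal is the count divided by a DESeq2 size factor of the library, computed by the authors with libraries not analysed here. Whether reads were counted by strand is not given in the sources used here. The tables hold 17924 genes after the filter of the study, 0 rows that name no gene and 0 columns of no sample.

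Groups and replicate numbers come from the labels, and nothing in them ties a library to an animal, so p-values measure the spread between these libraries. Counts of the 23 pairs of libraries of 1 muscle differed with a chi-square of at least 56.5 per degree of freedom, so no pair was a duplicate. The 17069 genes that reached a normalized count of 10 in 3 or more libraries were tested with edgeR 4.0.16 (quasi-likelihood test, TMM, all 13 libraries, muscle as the only factor, R 4.3.3). The sequencing run, a term in the model of the study, could not be read from the labels. A standard error is the size of the log2 fold change over the square root of F. For log2 CPM the prior count was 2. Levels per kilobase use the union of exons of GENCODE mouse release 21 on GRCm38. Promoter sequences are those of RefSeq on GRCm38.p6. Figures and tables were made with Python 3.11.15, pandas 2.3.3 and matplotlib 3.10.9. Alternatives used DESeq2 1.42.0, limma 3.58.1, other scalings, filters, blocks and each library left out. The scripts were tested on simulated counts.

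Same-numbered EDL and psoas libraries deviated together from the means of their muscles, with correlations of 0.407, 0.370, 0.316, 0.289 and 0.371 for replicates 1 to 5. All were over 0.1, the limit set for taking numbers as pairs in the replicate block. Replicate 1 joins mice of 38 and 29 days with different label codes, and the pairs of replicates 2 to 5 each share a label code. Correlations between libraries of different numbers were not computed, so these values do not show that a pair came from 1 animal. The numbers of soleus did not all pass that limit (EDL with soleus −0.162 to 0.421). Members, lists and named genes were chosen with earlier results of these data known. The text names the 10 members, every gene of the pathway list that was called, Acvr2a, Acvr1b, Wfikkn1, Wfikkn2, Fstl1, Nog, Inhbb, Igf2, Insr and Igfbp4, and the 3 genes that follow Mstn most closely. The SDs and standard errors hold the spread between libraries, counting error included, while counts of reads bear on counting error only.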

Additional observations from a re-analysis of the deposited data

Results flagged for a closer look

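A library was set apart where its gap to the nearest of the 5 libraries of its muscle exceeded 0.71 of their range, Dixon's limit. Of 42 groups of 5 tested, for 21 members and other named genes of the pathway list (Nog not among them), 5 exceeded it. Chance gives about 1 in 20 for normal and independent values. Whether the counts are normal was not checked, and genes of 1 library are not independent. EDL replicate 4 stood apart for 3 genes, with a normalized count of 3009 for Igf1, 2049.7 for Igfbp5 and 499.9 for Acvr1c, against at most 1198, 746 and 183 in the other EDL libraries. That library had the highest macrophage, fibroblast and adipocyte marker sums of the EDL libraries (17115, 66512 and 27880). The single markers Cd68, Pdgfra, Ly6a and Cidec were higher in another EDL library. Psoas replicate 1 stood apart for Igfbp3, at 4283 against at most 1490.2 in the other psoas libraries. Psoas replicate 3 stood apart for Ltbp3 on the low side, at 464 against at least 579. Without EDL replicate 4 the log2 fold change of Igf1 in psoas against EDL went from 0.65 to 1.13 and was called (edgeR adjusted p = 0.00298), and without psoas replicate 1 that of Igfbp3 went from 0.03 to −0.63 and was not (edgeR adjusted p = 0.0851).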

How the results depend on the processing

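In psoas against EDL, where 415 genes were called higher, 426 lower and 2 members called, library totals gave 2119 higher and 163 lower, DESeq2 812 and 774, the replicate block 702 higher, pairs 2 to 5 alone 255 lower, and a fit of the 2 muscles only 261 lower. Only 1 member was called with limma, without the low-count filter, in the fit of the 2 muscles, with the label code as a block, and with the replicate block of 5 pairs or of pairs 2 to 5, where also 2 and not 4 members had an adjusted p under 0.05. In soleus against EDL (91 higher, 76 lower), library totals gave 237 higher, DESeq2 270 higher and 363 lower, the 2 muscles only 54 higher, the code block 31 higher, limma 117 lower and the replicate block 45 lower. DESeq2 called 2 members there, and with the code block 1 member had an adjusted p under 0.05. In soleus against psoas (12 higher, 1 lower), library totals gave 3 lower, DESeq2 95 higher and 76 lower, limma 5 lower, the 2 muscles only 0 lower and the code block 4 higher and 2 lower.

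Leaving out 1 library at a time gave 170 to 402 genes higher and 147 to 449 lower in psoas against EDL, with 0 to 2 members called and 2 to 4 at an adjusted p under 0.05. It gave 17 to 90 higher and 2 to 92 lower in soleus against EDL, with 0 to 1 members called and 0 to 3 at an adjusted p under 0.05, and 3 to 18 higher and 0 to 3 lower in soleus against psoas.

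Changes of sign touched log2 fold changes that had not passed. In psoas against EDL, Acvr2b, Acvr1b and Wfikkn2 became 0.299, 0.0116 and 0.317 with library totals, Igfbp3 became −0.57 with the code block, −0.25 with limma, −0.25 with the replicate block and −0.57 with pairs 2 to 5, and Fstl1 became −0.000715 with RLE scaling, −0.000720 with DESeq2, −0.0427 with limma and −0.0314 with the replicate block. In soleus against EDL, Igfbp3 became −0.14 with the replicate block. In soleus against psoas, Igfbp3, Acvr2a and Inhbb became −0.0857, −0.0911 and −0.0211 with library totals, and Igf1 0.185 and Inhbb −0.0316 with the replicate block. With 1 library left out, psoas against EDL ran from −0.48 to 0.12 for Acvr2b, −0.15 to 0.22 for Fstl1, −0.63 to 0.24 for Igfbp3 and −0.50 to 0.0132 for Wfikkn2. Soleus against EDL ran from −0.0832 to 0.29 for Igfbp3. Soleus against psoas ran from −0.0669 to 0.17 for Acvr2a, −0.0950 to 0.0359 for Igf1, −0.13 to 0.74 for Igfbp3, −0.0230 to 0.73 for Igfbp5, −0.0331 to 0.30 for Inhbb and −0.34 to 0.0821 for Insr.

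Lengths of the longest transcript gave Mstn rank 4 in EDL and 8 in soleus, Fst rank 2 in psoas, Fstl3 rank 7 in soleus, Igf1 rank 3 in each muscle and Igfbp5 rank 5 in EDL and 4 in soleus. The legacy quasi-dispersion planned as an alternative is the default of edgeR 4.0.16 and was the one used, so the newer setting was run in its place, and it and the fit of pairs 2 to 5 were added after seeing the data. The blocks took away the call of Mstn in psoas against EDL and changed no other call of a member. The causes of these changes were not tested, and members with under 10 reads in several libraries (Fstl3, Inhba) are limited by depth.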
